A study of Mus musculus with 28 samples.

Results

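The NRF2 antioxidant genes are 10 mouse genes picked by symbol, Nfe2l2, Keap1, Nqo1, Gclc, Gclm, Slc7a11, Gsr, Txnrd1, Srxn1 and Prdx1, out of the 55450 genes with a row in the RNA-seq table. Each had a single row. Measured values played no part in the rule that chose them, although results from these libraries were already known when the genes were listed. Their levels were followed over 12 RNA-seq libraries of C10 cells, with 3 biological replicates for each of the time points 0h, 1h, 12h and 48h. C10 is a mouse Pre-B cell line derived from HAFTL cells that carries rat C/EBPα joined to the hormone binding part of the estrogen receptor (C/EBPαER). All groups, 0h included, carried this transgene and grew in medium with 2-mercaptoethanol, a thiol reductant. The 1h, 12h and 48h groups received 100 nM β-estradiol together with IL-3 and CSF-1, and the medium was renewed each day. No library with the hormone alone, the cytokines alone or time in culture alone was used here, so these cannot be told apart. A single cell line was studied, and separate cultures of it are not separate animals. Promoter Capture Hi-C (PCHi-C), which lists DNA fragments found in contact with captured promoters, was used from the same 4 time points, each a single list merged from 2 replicates.

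NRF2, the product of Nfe2l2, is a transcription factor that binds the antioxidant response element (ARE) as a dimer with a small MAF protein. KEAP1 holds NRF2 in a complex with the ubiquitin ligase scaffold CUL3, which leads to its degradation, and oxidants or electrophiles that modify KEAP1 let NRF2 accumulate. NRF2 is therefore controlled largely at the protein level, which RNA-seq does not measure. Its best known target genes make glutathione, keep thioredoxin and the peroxiredoxins reduced and supply NADPH, and in macrophages they act in cells that make superoxide with the phagocyte NADPH oxidase.

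The values are TPM, which give a gene's share of a library's transcripts, corrected for their length. They are not counts, so the depth of each library is unknown from them. A pair of genes at a ribosomal RNA locus took from 70.3% to 82.9% of the TPM of a library, and the share left for other genes differed between time points. Changes of members against 0h are therefore mostly given on log2(TPM + 0.1) as deposited and again after median-of-ratios scaling between libraries (called rescaled). For the wider gene lists, counts of calls are given under both scalings. Fold changes of the genes named from those lists are as deposited unless stated otherwise. Rescaling lowered the median change of all genes tested by 0.57 at 1h and by 0.27 at 12h, and raised it by 0.25 at 48h (log2, against 0h). The split of calls over all genes moved with it, from 24.1% higher and 1.41% lower at 1h as deposited to 5.41% and 4.92% rescaled. At 12h it moved from 22.3% and 7.82% to 16% and 14.5%, and at 48h from 15.9% and 27.2% to 24.5% and 22%. Of 7 Pre-B cell markers, summed TPM went from between 189 and 221 at 0h to between 20.4 and 25.3 at 48h, and of 7 macrophage markers from between 8.5 and 10.1 to between 887 and 1071. Such sums rest mostly on the most abundant markers. At 48h, 7 Pre-B cell markers were called lower, or 6 rescaled (27.2% and 22% of all genes). All 7 macrophage markers were called higher under both scalings (15.9% and 24.5%). All 12 markers of T cells, red cells, fibroblasts and granulocytes together summed to at most 0.12 TPM in any library. In bulk RNA, more cells that express a gene and more RNA of it per cell cannot be told apart.

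The 10 genes did not move as a block. Within 1h, Nfe2l2, Gclc, Gclm, Txnrd1 and Srxn1 rose under both scalings. Gclc, Gclm and Txnrd1 then came down, and by 48h stood below their starting level, whereas Nfe2l2 and Srxn1 remained above theirs. Keap1 and Prdx1 did not pass the test against 0h at any time point.

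**Figure D1:**
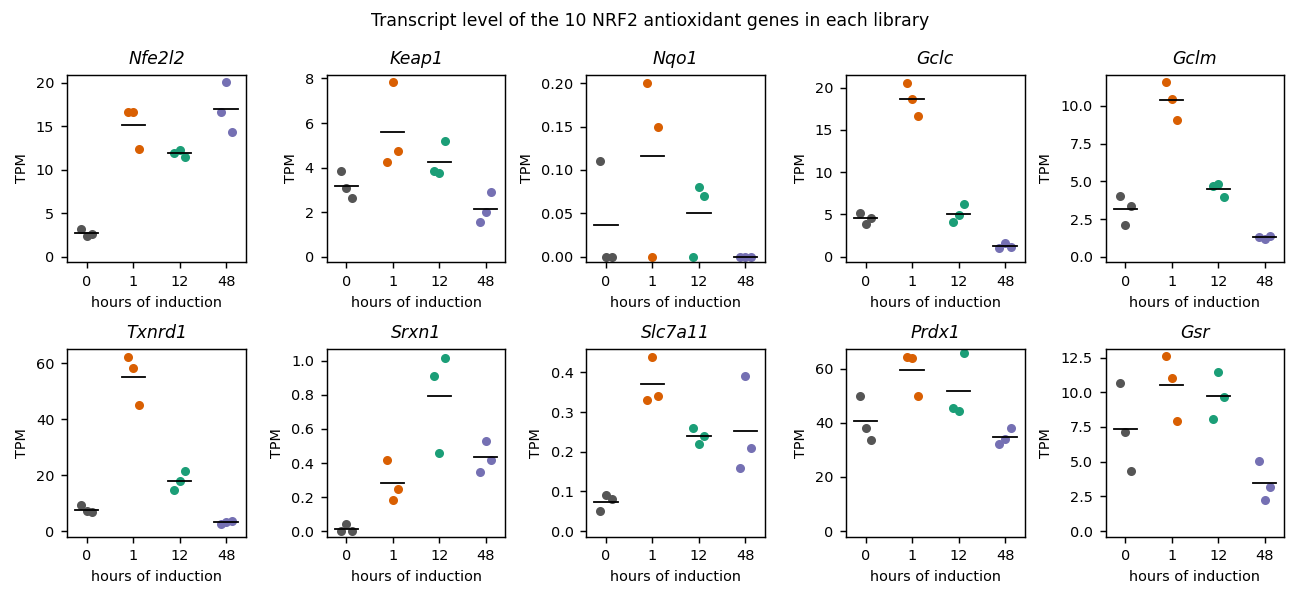
TPM of each NRF2 antioxidant gene (y axis, linear, a separate scale for each gene) at 0, 1, 12 and 48 hours of induction (x axis). Points are libraries, 3 per time point, and black lines are their means. Gclc, Gclm and Txnrd1 peak at 1h and are lowest at 48h, while Nfe2l2 is at 11.5 TPM or more in every induced library and at 3.22 TPM or less at 0h.

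Nfe2l2 (ENSMUSG00000015839, chromosome 2, 75675513 to 75704641, minus strand, GRCm38, as are all positions here) encodes NRF2 itself. Its TPM was 3.22, 2.42 and 2.67 in the 0h libraries, 16.61, 16.59 and 12.34 at 1h, 11.93, 12.26 and 11.51 at 12h, and 16.63, 20.04 and 14.28 at 48h. All 9 induced libraries lay above all 3 uninduced ones. The log2 fold change against 0h was 2.41 at 1h (standard error 0.18, adjusted p = 1.14e-05), 2.07 at 12h (adjusted p = 1.01e-05) and 2.57 at 48h (adjusted p = 6.11e-07, limma with Benjamini-Hochberg adjustment over all genes tested, as throughout). Rescaled, it was 1.76, 1.74 and 2.98. The 12h level was not called against the 1h level (log2 change -0.34, adjusted p = 0.224). From 12h to 48h the difference in the deposited values was 0.50 and missed the threshold (adjusted p = 0.0553), whereas the rescaled values rose by 1.24 (adjusted p = 0.00042).

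Keap1 (ENSMUSG00000003308, chromosome 9, 21229730 to 21239361, minus strand) encodes the adaptor that targets NRF2 for degradation. Its TPM was 3.86, 3.07 and 2.63 at 0h, 4.24, 7.86 and 4.73 at 1h, 3.85, 3.74 and 5.19 at 12h, and 1.54, 2.03 and 2.92 at 48h. As deposited, the 1h libraries lay above the 0h libraries, with replicate 2 the highest by far, and the 48h libraries overlapped those of 0h. Rescaled, the 1h libraries also overlapped those of 0h. No change against 0h was called: the log2 fold change was 0.76 at 1h (adjusted p = 0.0747), 0.41 at 12h and -0.57 at 48h, with rescaled values of 0.12, 0.081 and -0.17. A fall from 12h to 48h was called as deposited (-0.98, adjusted p = 0.0215) but not after rescaling (-0.25, adjusted p = 0.497). The antisense gene Gm16754 covers 10.9% of the exonic bases of Keap1. The library kit was not stated to keep the strand, so reads of both genes there cannot be told apart.

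Both subunits of the ligase that starts glutathione synthesis turned from a rise at 1h to a fall at 48h. Gclc (ENSMUSG00000032350, chromosome 9, 77754535 to 77794485, plus strand) encodes the catalytic subunit of glutamate-cysteine ligase, the rate-limiting enzyme of glutathione synthesis. It was at 5.16, 3.86 and 4.55 TPM at 0h, 20.56, 18.66 and 16.63 at 1h, 4.1, 4.96 and 6.24 at 12h, and 1.07, 1.57 and 1.1 at 48h. No 1h library overlapped any other time point, the 12h libraries overlapped those of 0h, and the 48h libraries were the lowest 3 of the 12. Against 0h the log2 fold change was 2.02 at 1h (standard error 0.21, adjusted p = 0.000109), 0.16 at 12h (adjusted p = 0.616) and -1.79 at 48h (adjusted p = 3.43e-05). Rescaled, it was 1.37, -0.17 and -1.41, so the direction at 12h, which was not called, flipped. Both steps down were called, with log2 changes of -1.86 from 1h to 12h and -1.95 from 12h to 48h.

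Gclm (ENSMUSG00000028124, chromosome 3, 122245557 to 122270732, plus strand) encodes the modifier subunit of the same ligase. Its libraries were at 4.06, 2.13 and 3.37 TPM at 0h, 11.56, 10.49 and 9.09 at 1h, 4.69, 4.8 and 3.98 at 12h, and 1.28, 1.18 and 1.38 at 48h. As for Gclc, the 1h libraries were the highest and the 48h libraries the lowest. The log2 fold change was 1.71 at 1h (standard error 0.23, adjusted p = 0.000486), 0.52 at 12h (adjusted p = 0.106) and -1.21 at 48h (adjusted p = 0.00105). Rescaled, it was 1.06, 0.20 and -0.83. At 12h the difference passed the threshold without 0h replicate 1 (0.72, adjusted p = 0.0391). Exons of 2 other genes, Gm17494 and Gm6061, cover up to 4.71% of its exonic bases.

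Slc7a11 (ENSMUSG00000027737, chromosome 3, 49892526 to 50443614, minus strand) encodes the light chain of the exchanger that takes up cystine for glutathione synthesis. It was at 0.44 TPM or less in every library, with 0.05, 0.09 and 0.08 at 0h, 0.33, 0.44 and 0.34 at 1h, 0.26, 0.22 and 0.24 at 12h, and 0.16, 0.39 and 0.21 at 48h. All induced libraries were above all uninduced ones. The log2 fold change was 1.44 at 1h (standard error 0.33, adjusted p = 0.00986), 0.98 at 12h (adjusted p = 0.0439) and 0.98 at 48h (adjusted p = 0.0311), values that depend on the 0.1 added. Rescaled, it was 0.98 at 1h (adjusted p = 0.083), 0.78 at 12h (adjusted p = 0.0931) and 1.32 at 48h (adjusted p = 0.00586). The 12h call was lost without any 1 of the 6 libraries of 0h and 12h (adjusted p from 0.0623 to 0.104), and the 48h call without 0h replicate 1 (0.0806) or 48h replicate 2 (0.111). The direction held in each of these. Over 22 alternatives in all, Slc7a11 was called in 18 at 1h, 9 at 12h and 17 at 48h. Gsr (ENSMUSG00000031584, chromosome 8, 33652523 to 33698163, plus strand) encodes glutathione reductase, which returns oxidised glutathione to its reduced form with NADPH. Its TPM was 10.69, 7.11 and 4.35 at 0h, 12.61, 11.05 and 7.93 at 1h, 8.05, 11.43 and 9.68 at 12h, and 5.06, 2.21 and 3.15 at 48h. The 0h libraries spread over a range that met every other time point, and replicate 3 of 0h lay inside the range of 48h. Only the 48h fall was called against 0h (log2 fold change -1.05, standard error 0.35, adjusted p = 0.0307). It was not called rescaled (-0.65, adjusted p = 0.14), in a fit to the 6 libraries compared (0.123), or without 0h replicate 1 (0.126), 0h replicate 2 (0.0757), 48h replicate 2 (0.128) or 48h replicate 3 (0.0725). At 1h the log2 fold change of Gsr was 0.57 as deposited and -0.082 rescaled, and neither was called.

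Txnrd1 (ENSMUSG00000020250, chromosome 10, 82833951 to 82897712, plus strand) encodes the cytosolic thioredoxin reductase, a selenoprotein that reduces thioredoxin with NADPH. It had the largest fitted log2 change of the 9 tested members at 1h, rescaled too, going from 9.24, 7.05 and 6.71 TPM at 0h to 62.12, 58.17 and 44.86 TPM. At 12h it was at 14.75, 17.78 and 21.3 TPM, and at 48h at 2.52, 3.3 and 3.56 TPM. No 2 time points overlapped. The log2 fold change against 0h was 2.83 at 1h (standard error 0.21, adjusted p = 1.02e-05), 1.21 at 12h (adjusted p = 0.00124) and -1.27 at 48h (adjusted p = 0.000436). Rescaled, it was 2.17, 0.88 and -0.87, and all 3 were called.

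Srxn1 (ENSMUSG00000032802, chromosome 2, 152105516 to 152111376, plus strand) encodes sulfiredoxin, which repairs peroxiredoxins that peroxide has overoxidised. It was listed at 0, 0.04 and 0 TPM at 0h, and at 0.42, 0.18 and 0.25 at 1h. The 12h libraries held 0.91, 0.46 and 1.02 TPM and the 48h libraries 0.35, 0.53 and 0.42. Every induced library was above every uninduced one, at levels around or under 1 TPM. The fitted log2 fold change was 1.73 at 1h (adjusted p = 0.00738), 2.94 at 12h (adjusted p = 0.000145) and 2.24 at 48h (adjusted p = 0.000461). Rescaled, it was 1.36, 2.76 and 2.69, called at each time point. Its size rests on the 0.1 added, and over the alternatives the 12h value ran from 0.81 to 5.48, always called. The 1h call was lost with a pseudocount of 1 (adjusted p = 0.0761) and with quantile normalization (adjusted p = 0.209). Unlike Gclc, Gclm and Txnrd1, whose levels dropped from 1h to 12h, Srxn1 rose by 1.21 over that step (adjusted p = 0.0384).

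Prdx1 (ENSMUSG00000028691, chromosome 4, 116685544 to 116700822, plus strand) encodes an abundant cytosolic peroxiredoxin, which removes hydrogen peroxide with thioredoxin. It was the most abundant member on the TPM scale in every library, at 49.92, 38.12 and 33.69 TPM at 0h, 64.36, 63.8 and 49.96 at 1h, 45.35, 44.5 and 65.61 at 12h, and 32.04, 34.03 and 37.9 at 48h. As deposited, time points overlapped, except that 1h libraries were all above those of 0h and 48h libraries all below those of 12h and 1h. Rescaled, the 1h libraries overlapped those of 0h, and the 48h libraries overlapped those of 12h and lay above those of 1h. No change against 0h was called, with log2 fold changes of 0.56 at 1h (adjusted p = 0.0639), 0.35 at 12h and -0.21 at 48h. Rescaled, the signs at 1h and 48h flipped (-0.10 and 0.20), again with no call. At 1h the difference passed the threshold without 0h replicate 1 (adjusted p = 0.0334), 1h replicate 3 (0.0481) or 12h replicate 3 (0.0385). Nqo1 (ENSMUSG00000003849, chromosome 8, 107388225 to 107403206, minus strand) encodes a quinone reductase widely used as an indicator of NRF2 activity. It was listed at 0.11, 0 and 0 TPM at 0h, 0.2, 0 and 0.15 at 1h, 0, 0.08 and 0.07 at 12h, and 0 in all 3 libraries at 48h. Its mean was under the minimum of 0.1 TPM for testing, so Nqo1 was not tested and no fold is given.

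Of the 9 members tested, 6 were called higher and 0 lower at 1h, where 24.1% of all 16415 genes tested were called higher. Rescaled, 5 were called higher beside 5.41% of all genes. At 12h, 4 were called higher (Nfe2l2, Txnrd1, Srxn1 and Slc7a11, with 22.3% of all genes called higher) and 0 lower, or 3 without Slc7a11 when rescaled (16%). At 48h, Nfe2l2, Srxn1 and Slc7a11 were called higher (15.9% of all genes) and Gclc, Gclm, Txnrd1 and Gsr lower (27.2%), and rescaling removed the call of Gsr. The median log2 fold change of the 9 was 1.71 at 1h beside 0.59 over all genes tested, 0.52 beside 0.34 at 12h, and -0.57 beside -0.18 at 48h. Rescaled, the pairs were 1.06 beside 0.021, 0.20 beside 0.070 and -0.17 beside 0.072. Between 1h and 12h, 1 member was called higher (6.98% of all genes) and 3 lower (15%), and the same counts were found rescaled (11.2% and 8.76%). Between 12h and 48h, 5 were called lower (31.7%) and 0 higher (4.1%, with Nfe2l2 nearest to the threshold), and rescaled 3 lower (11.9%) and 1 higher, Nfe2l2 (10.5%). As deposited, each of the 9 had a fitted change above 0 at 1h and at 12h, but so had the median of all genes (0.59 and 0.34). Rescaled, Prdx1 (-0.10) and Gsr (-0.082) were below 0 at 1h, and Gclc (-0.17) at 12h. The 3 comparisons against 0h share their control libraries and are not independent of each other.

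**Figure D2:**
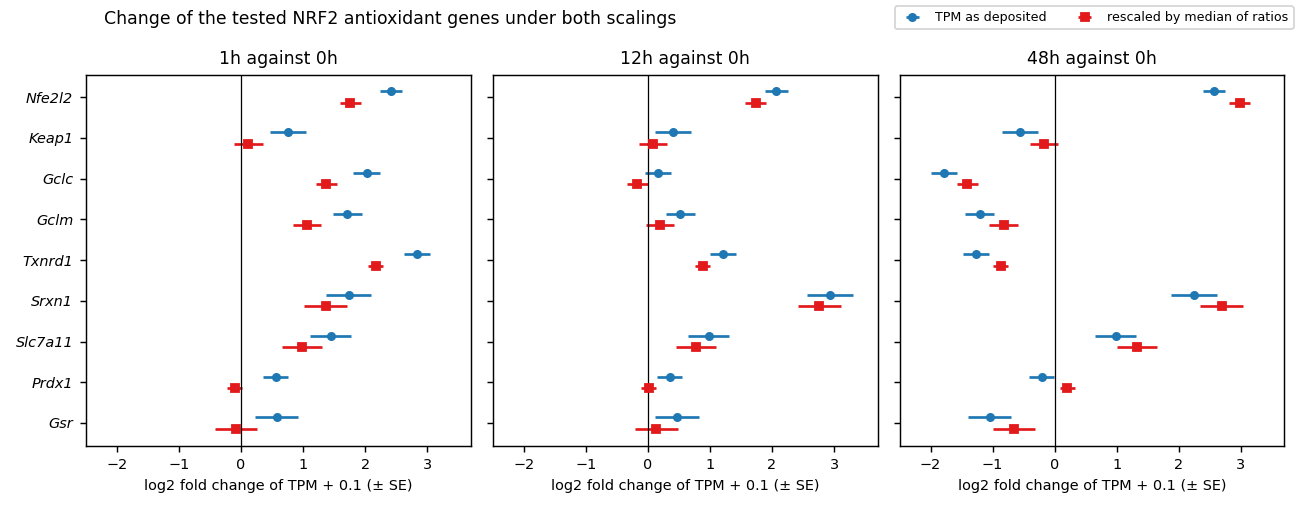
Log2 fold change of TPM + 0.1 against 0h (x axis, bars are standard errors) for the 9 members tested (y axis), as deposited (circles) and after median-of-ratios scaling (squares), at 1h, 12h and 48h. Nfe2l2 lies right of 0 in all 3 panels (2.41, 2.07 and 2.57 as deposited), while Gclc, Gclm and Txnrd1 lie to the right at 1h and to the left at 48h.

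Ratios between partner genes were taken within each library, where a scaling factor common to the library cancels out apart from the 0.1 added. All 5 ratios differed between the 4 time points (exact permutation test over 15400 divisions of the 12 libraries into 4 groups of 3, with no direction, adjusted over 5 ratios), of which Gclc to Gclm passed narrowly. Ratios of other gene pairs were not tested, so the count has no background share, and whether it is particular to these pairs is unknown. The log2 ratio of Nfe2l2 to its inhibitor Keap1 was -0.25, -0.33 and 0.021 at 0h and 3.35, 3.24 and 2.25 at 48h. Its mean at 0h, 1h, 12h and 48h in turn was -0.19 ± 0.19 (SD, n = 3), 1.46 ± 0.45, 1.48 ± 0.30 and 2.95 ± 0.61 (exact adjusted p = 0.00162). Txnrd1 to Txn1, the reductase to the thioredoxin it reduces, stood at -1.13 ± 0.11, 0.72 ± 0.16, -0.74 ± 0.046 and -1.14 ± 0.28 in the same order (exact adjusted p = 0.00303). The 48h and 0h means of this ratio differed by -0.016, while both transcripts were called lower at 48h than at 0h.

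Srxn1 to Prdx1, the repair enzyme to its substrate, had means of -8.49 ± 0.44, -7.32 ± 0.46, -5.89 ± 0.41 and -6.04 ± 0.24 over the 4 time points in order (exact adjusted p = 0.00162). Slc7a11 to Slc3a2, the light chain to the heavy chain of the cystine exchanger, had means of -7.58 ± 0.39, -6.58 ± 0.44, -8.0 ± 0.28 and -6.36 ± 0.51 (exact adjusted p = 0.00576). Slc3a2 itself was at 39.16, 30.96 and 29.16 TPM at 0h and 75.48, 82.14 and 105.3 TPM at 12h. Gclc to Gclm had means of 0.53 ± 0.26, 0.84 ± 0.023, 0.16 ± 0.43 and -0.052 ± 0.38 (exact adjusted p = 0.0471). Without replicate 3 of every time point, 0 of the 5 ratios passed (exact adjusted p from 0.0714 to 0.2, with 3 ratios under an unadjusted p of 0.05), and without replicate 2 the ratios of Gclc to Gclm and Slc7a11 to Slc3a2 did not pass. Srxn1 and Slc7a11 are low enough that their ratios depend on the 0.1 added.

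**Figure D3:**
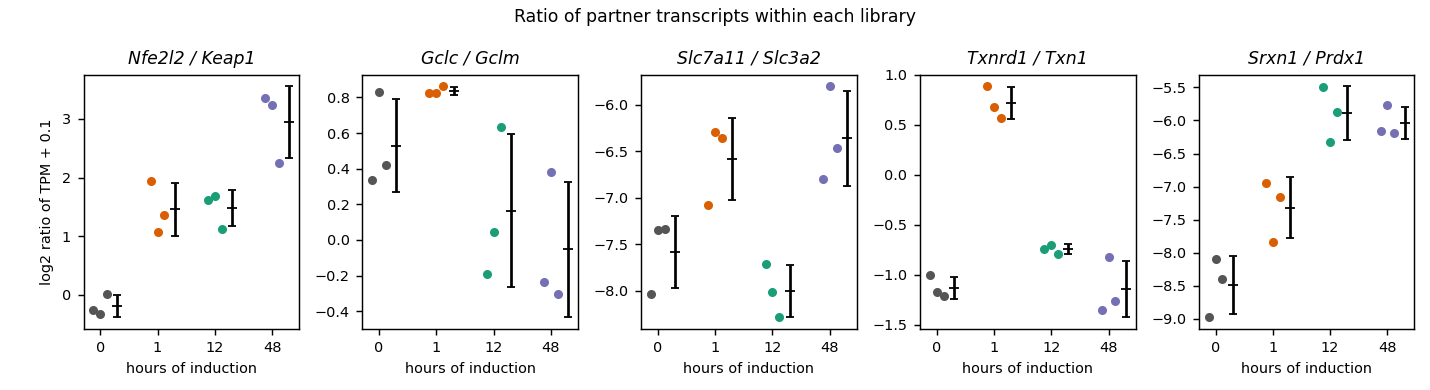
Log2 ratio of TPM + 0.1 between 2 partner genes within each library (y axis, a separate scale for each pair) at 0, 1, 12 and 48 hours of induction (x axis). Points are libraries and black bars are the mean ± SD of 3. The Nfe2l2 to Keap1 ratio is highest at 48h (mean 2.95), and the Txnrd1 to Txn1 ratio is above 0 at 1h alone (mean 0.72).

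Over the 12 libraries, on the rescaled log2 scale, the members fell into patterns that their Pearson correlations describe. Gclc, Gclm and Txnrd1 followed each other closely, with r from 0.927 to 0.93 for the 3 pairs. Nfe2l2 followed Slc7a11 (r = 0.898) and Srxn1 (r = 0.828) but not Gclc (r = -0.399), Gclm (r = -0.285) or Txnrd1 (r = -0.162). The 12 points are 4 time points of 3 libraries, so these values mostly repeat the time course and carry no test. Among up to 9331 other tested genes with a mean of at least 1 TPM, those most like Nfe2l2 were Gm45221 (r = 0.991), Arid5b (r = 0.987), which encodes a DNA binding protein, and Gm42445 (r = 0.984). Depdc7 was most like Txnrd1 (r = 0.962), Ankrd13a most like Srxn1 (r = 0.977) and Gm37472 most like Slc7a11 (r = 0.948). Keap1, Prdx1 and Gsr had weaker best matches, in Haghl (r = 0.837), Rragc (r = 0.885) and Riok2 (r = 0.842).

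The promoters of 8 of the 10 members are in the RefSeq table used here (GRCm38.p6), which holds 250 bases before and 50 after each start. Gclc and Gsr are not in that table. The 8 members' windows were searched on both strands for TGACNNNGC, the core of the ARE, and 5 members held it, Nfe2l2, Gclm, Txnrd1, Prdx1 and Srxn1, as did 12.4% of all 32851 promoters (14% of 27025 genes). Keap1, Nqo1 and Slc7a11 did not hold it in this window. The stretches that carry these matches are shown because they belong to 4 members called higher at 1h and to Prdx1, which was not. Each runs 5′ to 3′ on the strand of its gene, with the match in capitals. Those of Nfe2l2 (chr2:75704664-75704913, minus strand), Gclm (chr3:122245307-122245556, plus strand), Txnrd1 (chr10:82858956-82859205, plus strand) and Prdx1 (chr4:116685349-116685598, plus strand) are the bases before the start. The stretch of Srxn1 (chr2:152105541-152105570, plus strand) lies just after it.
Nfe2l2: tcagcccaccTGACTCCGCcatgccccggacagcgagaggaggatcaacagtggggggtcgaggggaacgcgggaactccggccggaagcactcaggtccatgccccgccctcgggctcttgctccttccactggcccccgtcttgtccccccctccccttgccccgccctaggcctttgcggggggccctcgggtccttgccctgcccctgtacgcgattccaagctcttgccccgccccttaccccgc
Gclm: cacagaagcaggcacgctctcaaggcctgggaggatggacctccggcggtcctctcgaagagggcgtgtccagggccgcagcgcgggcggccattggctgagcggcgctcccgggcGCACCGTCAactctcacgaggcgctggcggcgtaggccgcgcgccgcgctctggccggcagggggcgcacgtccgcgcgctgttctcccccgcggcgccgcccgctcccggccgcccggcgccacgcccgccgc
Txnrd1: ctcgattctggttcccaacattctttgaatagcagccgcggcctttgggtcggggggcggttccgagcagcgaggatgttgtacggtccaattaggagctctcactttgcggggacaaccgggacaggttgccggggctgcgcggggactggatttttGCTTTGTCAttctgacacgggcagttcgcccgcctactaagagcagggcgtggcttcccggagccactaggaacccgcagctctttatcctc
Prdx1: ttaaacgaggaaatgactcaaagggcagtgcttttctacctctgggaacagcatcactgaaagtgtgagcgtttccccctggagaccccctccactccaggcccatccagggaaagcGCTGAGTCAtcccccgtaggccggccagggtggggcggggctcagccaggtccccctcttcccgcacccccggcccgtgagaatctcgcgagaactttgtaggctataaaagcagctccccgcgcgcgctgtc
Srxn1: ggcagtgggcaGCTAGGTCAgagtgagaca

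In Nfe2l2 the core is on the strand of the gene and in the other 4 it is on the opposite strand, so it reads there as its reverse complement. The match in Prdx1 overlaps a match to TGANTCA, the site of AP-1, which was found in Prdx1 and Srxn1 and in 7.81% of all promoters. The core of the C/EBP site, TTGCNNAA, was found in 1 member, Slc7a11, and in 10.8% of all promoters. The window of Txnrd1 is that of a start inside the annotated gene, at position 82859206, downstream of the first annotated start. Letters that match are not evidence of binding, which was not used here.

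PCHi-C baits were known only from the interaction lists, so a captured promoter without a listed interaction at any time point was not counted. Such listed baits held a start site of 9 of the 10 members. Slc7a11 had none, so whether its promoter was captured is unknown. The promoters of Gclc and Nfe2l2 had the most listed interactions at every time point. In the order 0h, 1h, 12h and 48h, Gclc had 59, 56, 51 and 53 interactions and Nfe2l2 had 41, 32, 34 and 47. The median over the 11817 tested genes with a listed bait was 8, 7, 7 and 7. For Gclc, 31 of its 84 listed partner fragments were in the lists of all 4 time points, and for Nfe2l2 21 of 62. Partner fragments of Gclc seen at all times held starts of Fbxo9, Gcm1, Ick, Klhl31 and Lrrc1, among others, and those of Nfe2l2 a start of Agps. The bait of Nfe2l2 also holds a start of E030042O20Rik, so its contacts belong to both genes.

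Keap1 had 26, 29, 11 and 11 interactions over the same time points, and Prdx1 had 19, 24, 12 and 5. Of the Keap1 partners at 0h, 17 were not listed at 48h, and of those of Prdx1 15. The share of all 0h interactions missing at 48h was not computed. Srxn1 had 8, 12, 17 and 6 interactions. Nqo1, at or near 0 TPM, had 7, 11, 8 and 6. Gsr had 5, 4, 3 and 2, Gclm 2, 3, 1 and 5, and Txnrd1 2, 1, 2 and 1. The listed bait of Txnrd1 holds its upstream start and not the one whose sequence is shown. Each time point is 1 merged list of interactions past the CHiCAGO score cutoff of the authors, with no replicate error, so none of these differences in number could be tested. Of the 169 interactions of members at 0h, 26 had a score of at least 10. Gclc held 13 of these, Nfe2l2 9, and Keap1 and Nqo1 2 each, while Prdx1 held 0. The falling numbers of Keap1 and Prdx1 thus start from interactions that mostly scored under 10, as did most of the 59 of Gclc and 41 of Nfe2l2. The share of all 0h interactions with a score of at least 10 was not computed. Of the 84 partner fragments of Gclc, 66 had a listed fragment within 10 kb, itself included, at all 4 times. For Nfe2l2 it was 52 of 62, and neighbouring fragments were each counted.

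**Figure D4:**
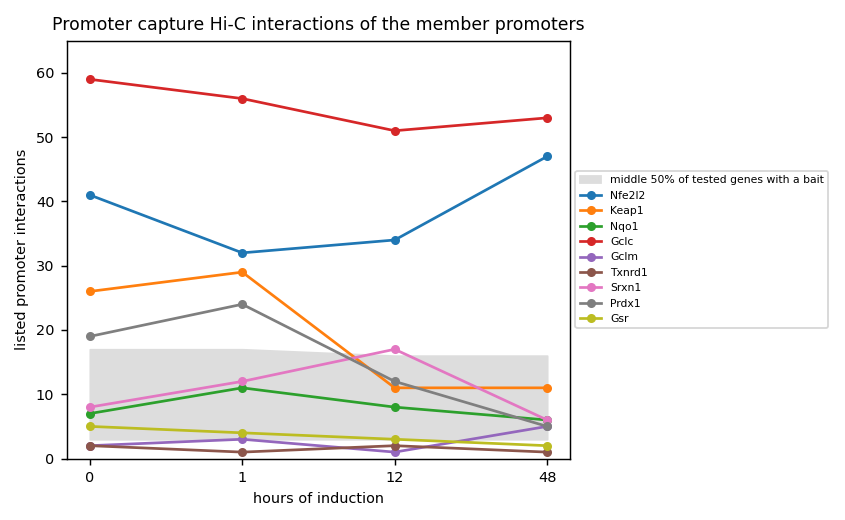
Number of listed PCHi-C interactions (y axis) at 0, 1, 12 and 48 hours of induction (x axis, evenly spaced). Lines are the 9 members with a listed bait. Each point is 1 merged list, without error, and the grey band is the middle 50% of the 11817 tested genes with a listed bait. Gclc and Nfe2l2 stay above the band, while Keap1 and Prdx1 drop into it after 1h. At 0h, 13 interactions of Gclc, 9 of Nfe2l2, 2 of Keap1 and 0 of Prdx1 had a score of at least 10.

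The wider redox system was described with 58 further genes in 7 lists, whose counts are set beside the shares of all genes called the same way. Most of the genes that keep thioredoxin reduced or use it were lower at 48h. Of 11 tested, 8 were called lower and 2 higher, with a median log2 fold change of -1.43 beside -0.18 over all genes (background 27.2% lower and 15.9% higher). Rescaled, 8 were lower and 3 higher (22% and 24.5%). Txnrd3, a thioredoxin reductase best known from testis, went from 8.68, 7.12 and 6.45 TPM at 0h to 0.22, 0.11 and 0.16 TPM at 48h (log2 fold change -4.85, adjusted p = 3.97e-08). Txnrd2, the mitochondrial thioredoxin reductase, fell by 2.79 on the log2 scale, so all 3 reductases were lower at 48h. The genes that rose were Txnip, which encodes an inhibitor of thioredoxin, from 5.72, 3.9 and 6.15 TPM to 44.01, 52.95 and 68.57 TPM (log2 fold change 3.37, adjusted p = 2.85e-07), and Prdx5 (2.42). At 1h this list held 1 call in each direction as deposited and, rescaled, 5 lower and 0 higher (background 4.92% and 5.41%). At 12h it held 3 higher and 2 lower, or 3 and 4 rescaled (background 22.3% and 7.82%, or 16% and 14.5%).

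Of the regulators of NRF2 and of its binding sites, 10 were tested and at 48h 2 were called higher and 1 lower, beside 15.9% and 27.2% of all genes, or 4 and 1 rescaled (24.5% and 22%). At 1h 3 were called higher and 0 lower (24.1% and 1.41%), or 1 each rescaled (5.41% and 4.92%). At 12h they were 5 and 2 under both scalings (22.3% and 7.82%, or 16% and 14.5%). The shares called higher at 1h and 48h as deposited were near those of all genes. Bach2 encodes a repressor that binds MAF recognition sites like the ARE and is known from B cells. It went from 6.29, 3.74 and 4.08 TPM at 0h to 0.15, 0.08 and 0.02 TPM at 48h (log2 fold change -4.74, adjusted p = 1.58e-05). Its relative Bach1 rose from 1.86, 1.43 and 1.30 TPM to 3.62, 5.88 and 4.40 TPM (1.53, adjusted p = 0.000564), and Sqstm1, which encodes an autophagy adaptor that binds KEAP1, rose by 1.59 (adjusted p = 1.96e-05). In the glutathione list, 2 of 12 tested genes were higher and 5 lower at 48h (15.9% and 27.2% of all genes), or 3 and 5 rescaled (24.5% and 22%). The same list had 3 higher and 0 lower at 1h (24.1% and 1.41%), but 0 higher and 3 lower when rescaled (5.41% and 4.92%). At 12h it had 4 higher and 1 lower under both scalings (22.3% and 7.82%, or 16% and 14.5%). As deposited, the shares called higher at 1h and 48h were near those of all genes. The higher at 48h were Glrx, which encodes glutaredoxin (log2 fold change 2.19), and Abcc1, which exports glutathione conjugates (1.21). Both had higher means at 12h than at 48h, with 59 and 24.1 TPM for Glrx and 8.51 and 3.47 TPM for Abcc1. That step down was called under both scalings for Glrx. For Abcc1 it was called as deposited (-1.3, adjusted p = 0.00151) but not rescaled (-0.56, adjusted p = 0.103). The largest falls called at 48h against 0h were of Chac1, which degrades glutathione (-2.53), and Mgst3 (-1.98, adjusted p = 0.0192). The call of Mgst3 was lost without 0h replicate 1 (adjusted p = 0.0685) or 48h replicate 2 (0.0838).

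Haem and iron genes, several of which NRF2 and the BACH proteins are known to control, had 2 of 6 called higher at 1h (24.1% of all genes) and 4 at 12h (22.3%), with no gene called lower as deposited. Rescaled, 1 was higher and 1 lower at 1h (5.41% and 4.92%) and 4 were higher at 12h (16%). At 48h 4 of 6 tested were called higher (15.9%), or 5 rescaled (24.5%), with a median log2 fold change of 1.55. Hmox1, which encodes haem oxygenase 1, was at 1.25, 1.11 and 1.02 TPM at 0h, 8.08, 7.24 and 6.69 at 1h, 6.25, 5.15 and 8.80 at 12h, and 10.69, 9.63 and 15.82 at 48h, and like Nfe2l2 was above its 0h range in every induced library. Its 48h log2 fold change was 3.28 (adjusted p = 6.28e-07). Fth1, the ferritin heavy chain, went from 81.60, 77.30 and 80.77 TPM to 358.55, 383.74 and 449.97 TPM (2.31, adjusted p = 8.3e-07). Among 7 genes of NADPH supply, 2 were called higher at 1h, a share near the 24.1% of all genes. It was 1 rescaled (5.41%), and 1 without any single library of 0h or 1h, where the share of all genes was not computed. At 12h 4 were higher and 1 lower under both scalings (22.3% and 7.82%, or 16% and 14.5%). At 48h 3 were higher and 3 lower (15.9% and 27.2%), or 3 and 2 rescaled (24.5% and 22%). The largest rises at 48h were of G6pdx, the first enzyme of the pentose phosphate pathway (2.97), and Idh1 (1.89), and the largest falls of Mthfd2 (-2.48) and Tkt (-2.17). The mean of G6pdx was higher at 12h (55.6 TPM) than at 48h (25.1 TPM). That fall was called as deposited (-1.14, adjusted p = 0.00394) but not rescaled (-0.40, adjusted p = 0.255). The superoxide and peroxide genes Sod1, Sod2 and Cat had no call at 1h or 12h as deposited (1 and 2 lower rescaled, beside 4.92% and 14.5% of all genes) and were all 3 called lower at 48h under both scalings (27.2%, or 22%), with log2 fold changes of -1.79 for Sod1 and -1.29 for Cat, which encodes catalase.

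Of 6 genes of the phagocyte NADPH oxidase, which makes superoxide, 3 were higher and 0 lower at 1h (24.1% and 1.41% of all genes), or 2 and 1 rescaled (5.41% and 4.92%). At 12h 5 were higher and 0 lower (22.3% and 7.82%), or 4 and 1 rescaled (16% and 14.5%). At 48h 4 were higher and 1 lower under both scalings (15.9% and 27.2%, or 24.5% and 22%). Cybb, its catalytic subunit, went from 2.98, 1.95 and 3.32 TPM at 0h to 34.16, 37.76 and 28.82 TPM at 1h and 133.82, 156.07 and 158.74 TPM at 48h (log2 fold change 5.74, adjusted p = 2.57e-09). Ncf1 rose by 4.6 at 48h, where its mean was 12.1 TPM after 32.4 TPM at 12h. Rac2 fell by 0.95 at 48h, a call that was lost with quantile normalization (adjusted p = 0.0606). The macrophage markers given above were higher at 48h together with Nfe2l2, Hmox1, Fth1 and Cybb, and the Pre-B cell markers were lower together with Gclc, Bach2 and Txnrd3. The part of either change of markers in the results was not tested.

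**Figure D5:**
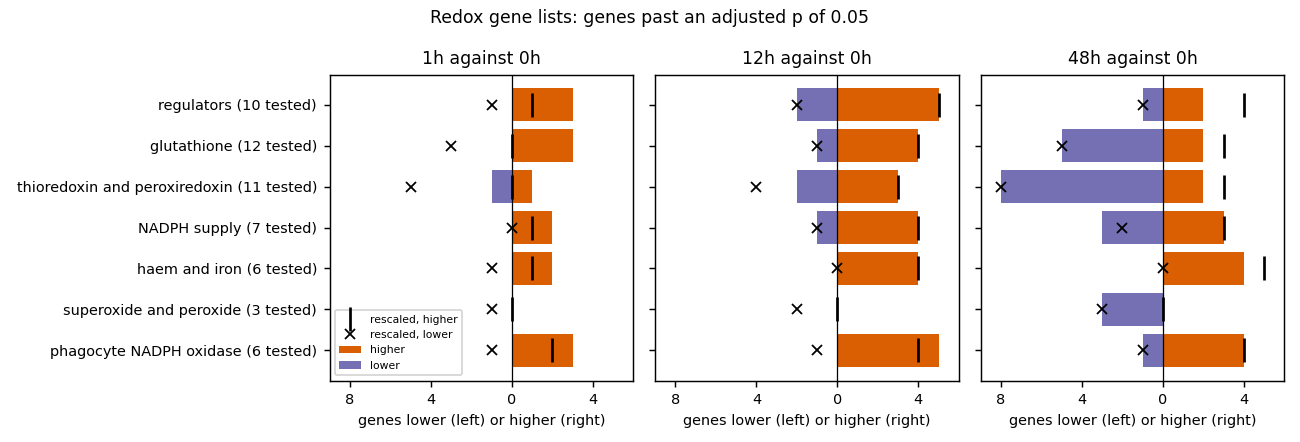
Number of genes called higher (bars to the right) or lower (bars to the left) against 0h in each of 7 redox lists (y axis, with the genes tested) at 1h, 12h and 48h. Black bars and crosses give the same counts after median-of-ratios scaling. The thioredoxin and peroxiredoxin list has 8 of 11 genes lower at 48h, and the haem and iron list has 4 of 6 higher.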

How the data were processed

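RNA-seq of 12 libraries and PCHi-C of 4 time points were used, and Hi-C was not used here. Per the labels, reads were trimmed with Trim Galore 0.6.2, and the submitters' processing notes name HISAT2 2.1.0, RSEM and mm10. The authors deposited TPM per gene, which keep no depth. The deposited 0h PCHi-C list gives a CHiCAGO score per interaction. The other 3 deposited lists give whole numbers of a unit not named in the sources used here, which were not used. 0 columns were left without a sample.

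The 16415 genes with a mean of at least 0.1 TPM were entered into 1 linear model of the 4 time points, fitted to log2(TPM + 0.1) of the 12 libraries by limma 3.58.1 (R 4.3.3) with a mean-variance trend, Benjamini-Hochberg adjustment and a threshold of 0.05. P-values measure the spread between cultures of 1 cell line. Size factors for rescaling used 11246 genes above 0 in every library. Interactions were counted over baits that hold a start of the gene in the GENCODE annotation of GRCm38. Baits were taken from the interaction lists and not from the capture design. Ratios were tested by exact permutation in Python 3.11.15 with numpy 2.4.6. The model was checked on simulated data with independent noise in each library and no difference in library scale. That check therefore does not cover the choice of scaling or deviations shared between libraries.

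The members, lists and tests were chosen with earlier results of these data known. Named genes are all members, their ratio partners, the genes most like each member, and for each list up to 2 genes with the largest rise and up to 2 with the largest fall among those called at 48h. A gene that this rule names is not reported here. Other fits changed the scaling, the low-value filter, the pseudocount, the trend, the libraries entered and the replicate block.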

Additional observations from a re-analysis of the deposited data

How the results depend on the processing

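The calls of Nfe2l2, Gclc, Gclm and Txnrd1 at 1h and 48h, and of Nfe2l2 and Txnrd1 at 12h, held in all 23 alternatives run for each. With 1 library left out, 308 of 324 member results kept their direction and their side of the threshold, 12 lost a call and 4 gained one. In those fits 6 to 7 members were called at 1h, 3 to 4 at 12h and 5 to 7 at 48h. These counts join rises and falls, and the share of all genes called in the same fits was not computed. Of 309 other alternatives, 270 kept both, 23 lost a call, 1 gained one and 15 changed sign. The filter of at least 1 TPM left 2 members called at 12h against 4, because Srxn1 and Slc7a11 are then not tested. Values that changed sign, none of them called, were Prdx1 at 1h (-0.103) and Gsr at 1h (-0.0818) and Gclc at 12h (-0.172) after rescaling, with or without the replicate block, and Prdx1 (0.2) and Slc3a2 (0.174) at 48h likewise. Rescaling without the 20 most abundant genes gave -0.0535 for Gclc at 12h, 0.127 for Prdx1 and 0.101 for Slc3a2 at 48h, and quantile normalization -0.14, 0.239 and 0.15. Between 1h and 12h, rescaling gave 0.115 for Prdx1 and 0.219 for Gsr, and between 12h and 48h 0.189 for Prdx1. Of the 5 ratios, 3 of the 4 that could be computed without a pseudocount passed (Gclc to Gclm, exact p = 0.0514), 5 with a pseudocount of 1, and from 0 to 4 without 1 replicate number. A 0h score of at least 10 left 26 of 169 interactions of members.

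Replicate numbers are shared between time points, and the deviations of same-numbered libraries from their group means correlated over 0.1 in 7 of 18 pairs (from -0.0123 to 0.257). Of the 6 pairs of replicate 3, 5 did, and its libraries had the lowest share of TPM at the ribosomal RNA locus at every time point (76.9%, 70.3%, 72.8% and 75.7%). As not every pair did, the numbers were not taken to pair the samples. As a hint from the data, 7 of 12 libraries correlated best with their own number. With the replicate block the members called were 6 at 1h, 3 at 12h and 7 at 48h, where Slc7a11 at 12h was the call lost (adjusted p = 0.057). With the block and rescaling they were 5, 3 and 6. Rises and falls are counted together here, and the share of all genes called in these block fits was not computed. TPM hold no depth, so for Srxn1, Slc7a11 and Nqo1 the error of counting is unknown.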
